A study of Homo sapiens with 6 samples.

Results

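The circular RNAs described here are 10 well-studied human circRNAs, chosen by their circBase numbers (circBase is a public catalogue of circRNAs) from a list drawn up around the circles of HIPK3 and CDR1as. All probes whose ID began with one of these numbers were kept, which gave 5 probes among the 35343 circBase probes and 175075 RNA probes of the array. The 5 listed circRNAs with a probe were hsa_circ_0000284, hsa_circ_0000211, hsa_circ_0001141, hsa_circ_0001944 and hsa_circ_0006156, with 1 probe each. The other 5, hsa_circ_0001313, hsa_circ_0001445, hsa_circ_0001727, hsa_circ_0001946 and hsa_circ_0007874, matched 0 probes and were not analysed here. The tables used here do not pair a circBase number with a host gene, so no probe is given a gene name, and whether a circle of HIPK3 or CDR1as is among the 5 is not read from them.

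A circRNA forms when the splicing machinery joins the end of an exon back to the start of the same or an earlier exon, which leaves a closed ring. A ring has no free ends for exonucleases to attack, so circRNAs are as a class more stable than the linear transcripts of the same genes. The circle of HIPK3, a gene for a nuclear protein kinase, is widely expressed in human cells and has been studied as a binder of microRNAs. CDR1as is transcribed antisense to CDR1, carries many sites for miR-7 and is best known from brain.

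The cells were of HGC-27, a long-established line grown from a human gastric cancer. OMT cultures (n = 3) received OMT, which the series text describes as an oxidized sophoridine alkaloid, at 2.64 mg/mL for 48 h, and control cultures (n = 3) were left untreated. The series calls the replicates biological. Total RNA was labelled with Cy3 and hybridised to single-colour Agilent arrays, and the labels' protocols name no step that removes linear RNA, so whether the probes also read linear RNA was not tested. In bulk RNA, fewer cells carrying a circRNA and less of it per cell cannot be told apart.

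The deposited log2 intensities do not share one scale across the groups. The 3 OMT arrays held one and the same set of values in different orders, as did the 3 control arrays, and the sorted sets of the groups differed by at most 1.57. The median of the circBase probes averaged 5.62 ± 0.04 over OMT arrays and 6.70 ± 0.01 over control arrays (SD, n = 3). DarkCorner, a spot that carries no probe for cell RNA and served here as background, read 1.18 to 1.33 on OMT arrays and 1.51 to 1.69 on control arrays. Treatment and the scale of the deposited values therefore cannot be told apart. Intervals and p-values given for deposited changes rest on the spread within groups and do not cover this difference in scale. Each level is given on the deposited scale and on a joint scale, for which all 6 arrays were quantile-normalized as one set. After this joint normalization DarkCorner read 1.29 to 1.57 on OMT arrays and 1.36 to 1.49 on control arrays. The rank of a probe among the circBase probes of its own array is given as well, since a step that keeps the order of probes on an array does not change it.

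Of the 5 measured circRNAs, the signal of hsa_circ_0000284 was higher in OMT than in controls relative to the other probes, that of hsa_circ_0006156 was lower, those of hsa_circ_0000211 and hsa_circ_0001141 differed between the groups by close to the median of all circBase probes, and hsa_circ_0001944 was at background. The first 2 changes were each close to 2-fold after joint normalization, in opposite directions. As deposited, 3 of the 5 probes were called (limma, adjusted p under 0.05 after Benjamini-Hochberg correction over all RNA probes), all 3 lower in OMT. The background was high: 46.3% of all RNA probes and 68.6% of circBase probes were called as deposited, and 62.5% of circBase probes were called lower. After joint normalization 2 of the 5 were called, 1 higher and 1 lower, against 39.4% of all RNA probes and 56.1% of circBase probes (21.9% higher, 34.2% lower). With 5 probes, these counts do not set the listed circRNAs apart from other circBase probes. The median change of the 5 was -0.83 as deposited and 0.0027 after joint normalization, and that of the 4 above background was -0.88 and -0.07, beside medians of -0.88 and -0.15 over all circBase probes and -0.36 and 0.04 over all RNA probes.

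**Figure D1:**
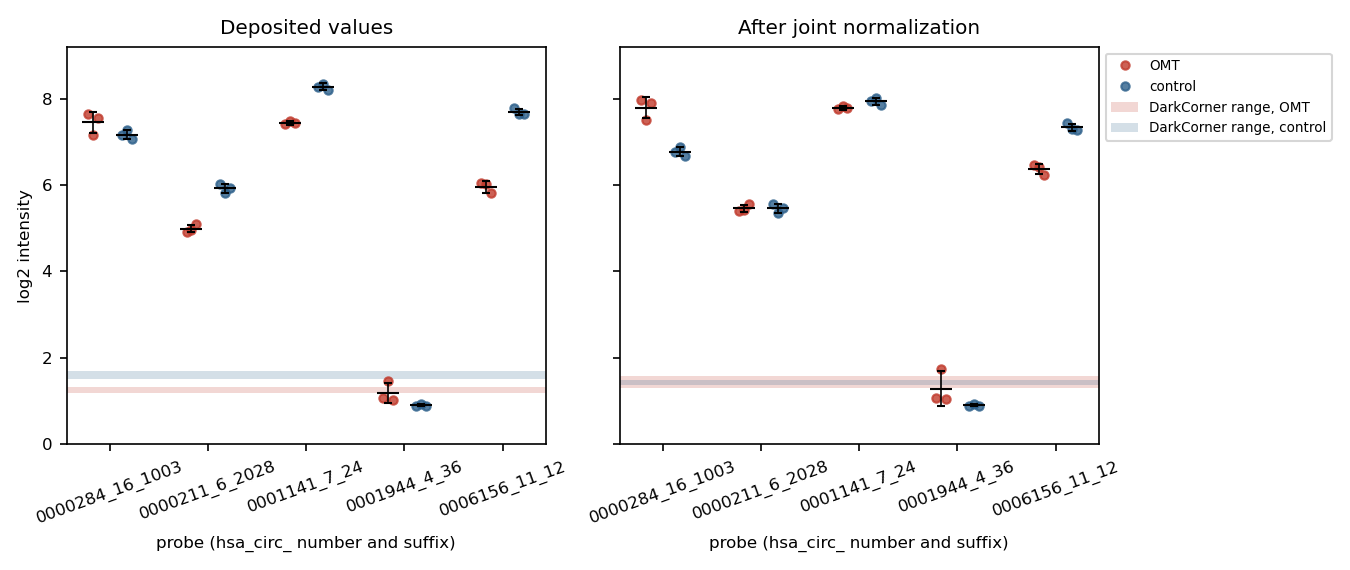
Log2 intensity of the 5 probes on every array, as deposited (left) and after joint normalization (right). Points are arrays, bars are the mean ± SD (n = 3), OMT stands left of control, and shaded bands span the DarkCorner readings of each group. Of the 5 probes, 4 lie well above both bands, and hsa_circ_0001944_4_36 lies near or below them, with 1 OMT array above the OMT band.

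The probe hsa_circ_0000284_16_1003 read 7.64, 7.17 and 7.55 on the OMT arrays, against 7.17, 7.27 and 7.07 on the control arrays, as deposited. OMT replicates 1 and 3 stood above all controls, while OMT replicate 2 lay within the control range, so the groups overlapped. The probe averaged 7.45 ± 0.25 in OMT and 7.17 ± 0.10 in controls (SD, n = 3), which gave a log2 change of 0.28 with a 95% interval of -0.09 to 0.66 and a limma adjusted p of 0.187. As deposited the probe thus did not pass the threshold, although most circBase probes read lower in OMT on this scale. Without OMT replicate 2, the array within the control range, the deposited change was 0.43, with a limma adjusted p of 0.0242. Leaving out any other single array gave limma adjusted p from 0.229 to 0.377, so only that omission passed the threshold.

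After joint normalization the same probe read 7.98, 7.52 and 7.89 in OMT, against 6.78, 6.89 and 6.67 in controls. All 3 OMT arrays now stood above all 3 control arrays, as for 28% of circBase probes on this scale. The probe averaged 7.80 ± 0.24 in OMT and 6.78 ± 0.11 in controls (SD, n = 3), which gave a log2 change of 1.02 (95% interval 0.64 to 1.39; limma adjusted p 0.00393). On a linear scale this was 2.02-fold higher in OMT, with an interval of 1.56 to 2.62. The spread between OMT arrays, 0.24, was above the median SD of 0.16 for circBase probes averaging between 6 and 8, and the control SD of 0.11 was above their 0.09.

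Its rank showed the same direction. Joint normalization sets each value by the rank of the probe among all spots of its array. For this and the other probes, the rank is therefore not separate support for the joint change. The probe stood at the 76.7, 70.7 and 75.3 percentile of the circBase probes on the OMT arrays, and at the 57.6, 59.2 and 55.9 percentile on the control arrays. The ranks did not overlap, and the mean rank was 16.7 percentile points higher in OMT (exact two-sided permutation p = 0.1, the smallest that 3 against 3 arrays allow). The share of probes whose ranks do not overlap between the groups was not computed, for this or the other ranks given. The rank alone therefore does not set a probe apart. Among all RNA probes it ranked at 84.0 ± 1.58 percent in OMT and 76.9 ± 0.81 percent in controls (SD, n = 3).

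The opposite pattern was seen for hsa_circ_0006156_11_12. As deposited it read 6.06, 6.02 and 5.81 in OMT, against 7.79, 7.65 and 7.65 in controls. Every OMT array lay below every control array, as for 68.9% of circBase probes. The probe averaged 5.96 ± 0.13 in OMT and 7.70 ± 0.08 in controls (SD, n = 3), which gave a log2 change of -1.74 (95% interval -1.99 to -1.48; limma adjusted p 1.3e-04). This was 3.33-fold lower in OMT.

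Joint normalization left a smaller fall of this probe. The values were 6.47, 6.43 and 6.23 in OMT, against 7.43, 7.29 and 7.29 in controls. The groups did not overlap in that direction, as for 41.3% of circBase probes. The log2 change was -0.96 (95% interval -1.21 to -0.71; limma adjusted p 0.00113), or 1.95-fold lower in OMT. In rank the probe stood at the 56.3, 55.2 and 52.0 percentile of circBase probes in OMT and at the 67.4, 65.2 and 65.1 percentile in controls, a difference of -11.4 percentile points (exact two-sided permutation p = 0.1).

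**Figure D2:**
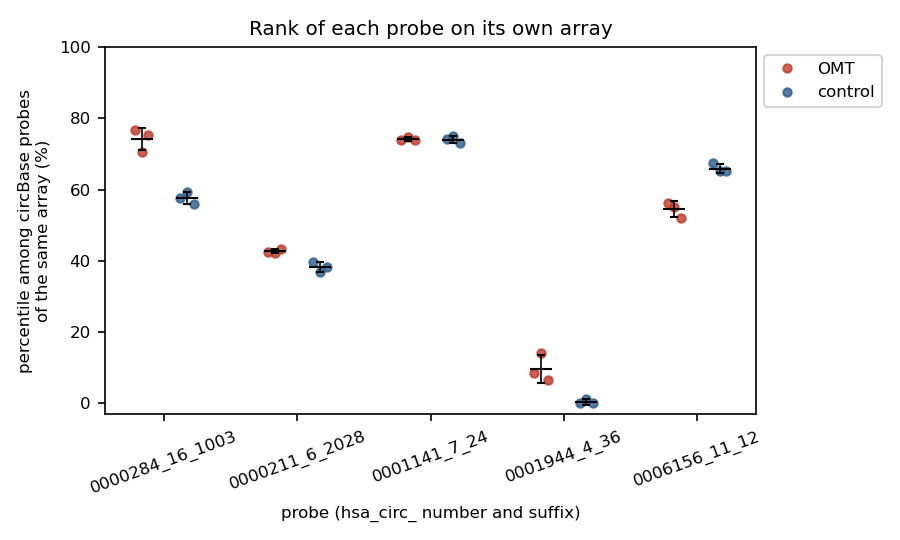
Percentile of each of the 5 probes among the 35343 circBase probes of the same array. Points are arrays and bars are the mean ± SD (n = 3), with OMT left of control. The rank of hsa_circ_0000284_16_1003 averaged 74.2 in OMT and 57.6 in controls, that of hsa_circ_0006156_11_12 averaged 54.5 in OMT and 65.9 in controls, and that of hsa_circ_0001141_7_24 averaged 74.2 in OMT and 74.0 in controls.

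The call for hsa_circ_0001141_7_24 depended on the scale. As deposited it read 7.41, 7.49 and 7.43 in OMT, against 8.28, 8.35 and 8.20 in controls. The OMT arrays were all lower, by a log2 change of -0.83 (95% interval -1.03 to -0.64; limma adjusted p 5.7e-04), which was close to the median of -0.88 over all circBase probes. After joint normalization it read 7.75, 7.83 and 7.78 in OMT, against 7.94, 8.02 and 7.85 in controls. The groups still did not overlap, but the change of -0.15 (95% interval -0.35 to 0.04) did not pass the threshold (limma adjusted p 0.196). Its rank among circBase probes averaged 74.2 ± 0.45 percent in OMT and 74.0 ± 1.02 percent in controls (SD, n = 3). They differed by 0.21 percentile points with overlapping groups (exact two-sided permutation p = 1). Among all RNA probes it ranked slightly lower in OMT, at 84.0 ± 0.25 percent, against 85.0 ± 0.50 percent in controls (SD, n = 3). Those ranks did not overlap (exact two-sided permutation p = 0.1). Between OMT arrays it varied by an SD of only 0.04 after joint normalization, against a median of 0.16 for circBase probes at its level.

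The call for hsa_circ_0000211_6_2028 likewise depended on the scale. As deposited it read 4.92, 4.96 and 5.09 in OMT, against 6.02, 5.82 and 5.95 in controls. All OMT arrays were lower, with a log2 change of -0.94 (95% interval -1.17 to -0.70; limma adjusted p 7.4e-04). After joint normalization the values were 5.40, 5.44 and 5.56 in OMT, against 5.56, 5.34 and 5.48 in controls. These overlapped, and the change was 0.0027 (95% interval -0.23 to 0.24; limma adjusted p 0.986). Its rank among all RNA probes was 66.7 ± 0.66 percent in OMT and 66.7 ± 0.87 percent in controls (SD, n = 3). Among circBase probes alone it stood slightly higher in OMT, at 42.7 ± 0.52 percent, against 38.4 ± 1.42 percent in controls, without overlap (exact two-sided permutation p = 0.1). How common such a rank difference is among circBase probes was not computed.

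The probe hsa_circ_0001944_4_36 gave no measurable level. It read 1.06, 1.45 and 1.03 in OMT, against 0.89, 0.94 and 0.89 in controls, as deposited. The OMT values lay above the control values, and the share of circBase probes in that order as deposited is not given here. However, the probe exceeded DarkCorner on only 1 of 3 OMT arrays, by 0.24, and on 0 of 3 control arrays. On the control arrays it lay 0.61 to 0.78 below that spot. The deposited change of 0.28 (limma adjusted p 0.154) and the joint change of 0.38 (limma adjusted p 0.237) did not pass the threshold, and no fold is given. The other 4 probes were above DarkCorner on all 6 arrays, by at least 3.75 on the log2 scale. Of all circBase probes, 81.2% were above DarkCorner on all 6 arrays by any margin.

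**Figure D3:**
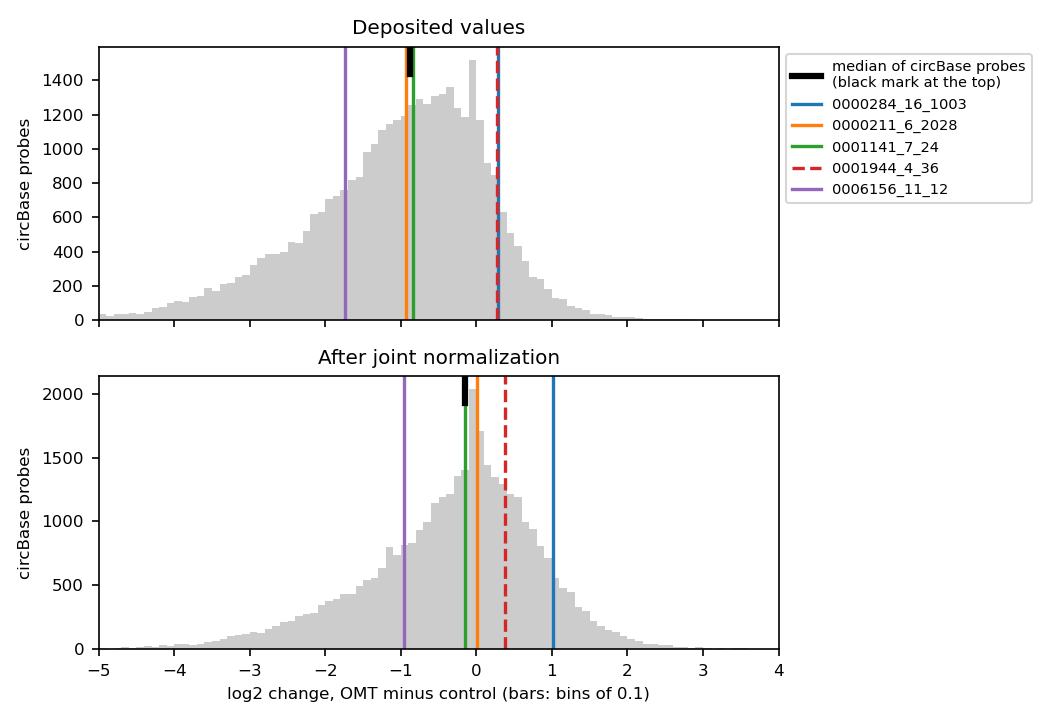
Distribution of the log2 change (OMT minus control) over the circBase probes in bins of 0.1, as deposited (top) and after joint normalization (bottom). Coloured lines mark the 5 probes and a black mark the median of circBase probes; changes beyond the axis are not drawn, and the lines of hsa_circ_0000284_16_1003 and hsa_circ_0001944_4_36 nearly coincide in the top panel. The median is -0.88 in the top panel and -0.15 in the bottom one, and hsa_circ_0006156_11_12 lies to its left in both.

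For the 4 probes above background, the position among circBase probes of like level was close on both scales. The same sets of probes, formed by joint level, served both scales, so this closeness is not separate support. On the joint scale 10167 circBase probes averaged between 6 and 8, and the median of their changes was -0.07 with quartiles of -0.77 and 0.53. The change of hsa_circ_0000284_16_1003 lay at the 89.8 percentile of these probes (90.4 as deposited), above the upper quartile. That of hsa_circ_0006156_11_12 lay at the 20.2 percentile on both scales, below the lower quartile, and that of hsa_circ_0001141_7_24 at the 46.5 percentile (50.1 as deposited). Among the 7695 circBase probes averaging between 4 and 6, whose median change was -0.31, hsa_circ_0000211_6_2028 lay at the 61.1 percentile (62.0 as deposited). The background-level hsa_circ_0001944_4_36 lay at the 80.1 percentile of 4421 circBase probes at levels below 2, and at the 86.2 percentile as deposited. These percentiles are descriptions, since probes are not replicates.

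The probes were also set beside circBase probes of like level that share the next-to-last number of the ID, a number that no source used here explains. That number was 16 for the hsa_circ_0000284 probe, and the 3049 circBase probes with the same number and a level between 6 and 8 had a median change of -0.40 after joint normalization. The rise of 1.02 lay at the 90.0 percentile of that set. For the hsa_circ_0006156 probe the number was 11, the median of the 303 such probes was -0.25, and its change of -0.96 lay at the 23.4 percentile. For the hsa_circ_0001141 probe it was 7, with a median of 0.02 over 578 probes and a percentile of 40.7. For the hsa_circ_0000211 probe it was 6, and among the 147 such probes at levels between 4 and 6 its change of 0.0027 was itself the median, against the 61.1 percentile among all circBase probes of that level. For the hsa_circ_0001944 probe it was 4, with a median of 0.0012 over 87 probes and a percentile of 78.2. Whether changes differ by this number was not tested.

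The changes of the measured circRNAs were also set against each other. The difference between 2 probes on the same array cancels any shift common to the array, and it was compared between groups for the 6 pairs of the 4 probes above background. The groups did not overlap for 5 of the 6 pairs on both scales (exact two-sided permutation p = 0.1 for each, the smallest possible). Over all pairs of the 28714 circBase probes above DarkCorner on every array, the share without overlap was 75.3% as deposited and 74.7% after joint normalization, so 5 of 6 does not set these pairs apart. The change of hsa_circ_0000284_16_1003 exceeded that of hsa_circ_0006156_11_12 by 2.02 as deposited and 1.98 after joint normalization. It exceeded that of hsa_circ_0001141_7_24 by 1.12 and 1.17, and that of hsa_circ_0000211_6_2028 by 1.22 and 1.01. The exception was hsa_circ_0000211_6_2028 against hsa_circ_0001141_7_24, whose changes differed by -0.10 as deposited and 0.15 after joint normalization, with overlapping groups on both scales (exact two-sided permutation p = 0.4 and 0.3).

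**Figure D4:**
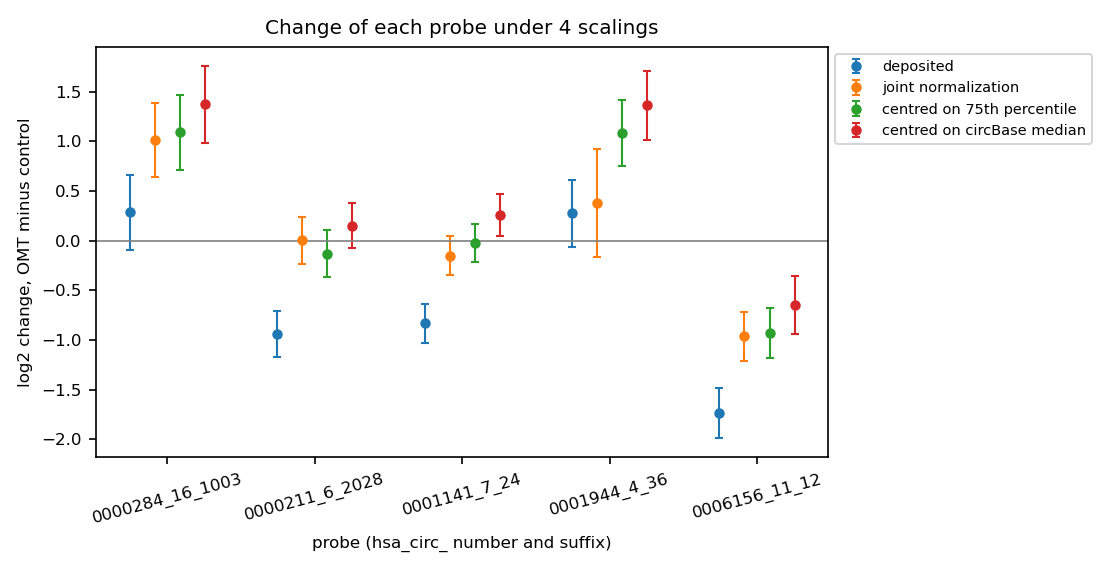
Log2 change of each of the 5 probes (OMT minus control) with its 95% limma interval, on the deposited scale, on the joint scale, and after centring each array on its 75th percentile or on the median of its circBase probes. The interval of hsa_circ_0000284_16_1003 reaches below 0 only as deposited, and that of hsa_circ_0006156_11_12 lies below 0 under all 4 scalings.

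Centring subtracts the same value from every probe of an array, so it moves all deposited changes alike. The gap between probes is kept by design, and the centred changes are not separate support for it. Centred on the 75th percentile of each array, the change was 1.09 for hsa_circ_0000284_16_1003 (limma adjusted p 0.0020) and -0.93 for hsa_circ_0006156_11_12 (limma adjusted p 8.0e-04). On this scale 62.8% of RNA probes and 66.3% of circBase probes were called. Centred on the median of the circBase probes, the changes were 1.37 (limma adjusted p 7.6e-04) and -0.65 (limma adjusted p 0.0045). On that scale 67.4% of RNA probes and 68.4% of circBase probes were called. Of these scales, centring on the circBase median alone also called hsa_circ_0001141_7_24 higher, by 0.25 (limma adjusted p 0.0405). Both centrings called hsa_circ_0001944_4_36 higher, at levels that do not exceed background on 5 of 6 arrays.

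Other circBase probes had nearly the same profile over the 6 arrays. Likeness was measured after joint normalization as the root mean square difference of values centred on each probe's own control mean. The probes most like hsa_circ_0000284_16_1003 were hsa_circ_0011349_0_20, at a distance of 0.042 and with a log2 change of 0.99, and hsa_circ_0071971_2_40, at 0.050 and with a change of 1.05. Those most like hsa_circ_0006156_11_12 were hsa_circ_0070073_15_64, at 0.039 and with a change of -0.97, and hsa_circ_0059011_7_22, at 0.044 and with a change of -0.98. Their like changes follow from this choice, since the distance depends on the change. Of the 35343 circBase probes, 991 lay within a distance of 0.2 of hsa_circ_0000284_16_1003 and 1724 within that distance of hsa_circ_0006156_11_12. How many lie that near a typical circBase probe was not computed.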

How the data were processed

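The deposited table holds one log2 intensity per spot and array. Per the series text, the authors normalized the values, by a method not given in the sources used here, and Agilent Feature Extraction is named in the submitters' processing notes. Base 2 was taken from the range of the values, which are the authors' own. All 6 columns matched a sample, with 0 columns over. No scanner files, detection flags or slide numbers were analysed here, so no batch could be tested, and the number of arrays limits the precision.

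Joint normalization was limma's quantile normalization over all 175143 spots. Each probe was tested for treatment alone, two-sided, with lmFit and eBayes of limma 3.58.1 (R 4.3.3). P-values of the 175075 RNA probes were adjusted together by Benjamini-Hochberg, and the threshold was 0.05. A real shift of most RNAs the same way would be lost in joint normalization, which equalizes the arrays. On simulated arrays of 175075 probes the fit recovered 9% of 2-fold and 49% of 4-fold changes, with 1 false call. Only 200 probes changed there, which makes the adjustment stricter than in the data. Ranks and pairs of probes were compared with exact permutation tests over the 20 labelings.

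All 5 probes were given with their values on every array. The probes of like profile were the 2 nearest to the largest rise and to the largest fall. The listed circRNAs, tests and rules were chosen with earlier results of these data known. The planned values for host genes, splicing genes and cell type markers were not computed, since the tables used here name no gene for a probe. Figures were drawn with matplotlib 3.10.9.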

Additional observations from a re-analysis of the deposited data

How the results depend on the processing

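As deposited, 3 probes were called, 0 higher and 3 lower. Joint normalization gave 1 higher and 1 lower, with or without the replicate block. Centring on the 75th percentile gave 2 and 1, and centring on the circBase median, added after the data were seen, gave 3 and 1. An added 2-fold threshold left 1 probe as deposited (lower) and, added later, 1 after joint normalization (1 higher, 0 lower). The share of all circBase probes that pass with this threshold was not computed. Leaving out 1 array gave 3 to 4 called probes as deposited (0 to 1 higher, 3 lower) and 2 after joint normalization (1 higher, 1 lower); leaving out arrays after joint normalization was added after the data were seen. The fourth was hsa_circ_0000284_16_1003 without OMT replicate 2. The count stayed at 3 with the dimmer 50% of probes left out, with trend and robust fitting, and with the replicate block. Shares of all circBase probes called were not computed for these settings or for the omissions of 1 array. In the main deposited fit 68.6% of circBase probes were called, so a steady count does not set the listed probes apart.

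The change of hsa_circ_0006156_11_12 kept its direction and an adjusted p below 0.05 under all 19 alternatives run. The changes of hsa_circ_0000284_16_1003 ran from 0.19 to 0.43 without 1 array as deposited and from 0.93 to 1.16 after joint normalization. The change of hsa_circ_0000211_6_2028 turned from -0.94 to 0.0027 after joint normalization, to 0.0027 with the replicate block added, to 0.15 with centring on the circBase median, and to values from -0.056 to 0.053 after joint normalization without 1 array: 0.036 and 0.016 without OMT replicates 1 and 2, and 0.053 and 0.011 without control replicates 1 and 3. Centring on the circBase median turned hsa_circ_0001141_7_24 from -0.83 to 0.25 (limma adjusted p 0.0405). The difference in change between hsa_circ_0000211_6_2028 and hsa_circ_0001141_7_24 turned from -0.10 to 0.15 after joint normalization. The cause was not tested.

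No pairing by replicate number was detected. Arrays of the same number deviated from their group means with correlations of 0.03, -0.11 and 0.01 over 87537 probes, and 0 of 3 OMT arrays correlated best with its own number. Arrays of a group already held the same set of values, so a shift shared by whole arrays could not show in this check. The comparison of probes within 1 circBase number was not run, since 0 numbers had 2 or more probes. Signal over background limits hsa_circ_0001944_4_36: its change was positive under all 18 alternatives in which it was fitted, but it was called only under both centrings. The share of probe pairs without overlap over all circBase probes was computed after the data were seen.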
